A study of Mus musculus with 30 samples.

Results

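The proteasome genes of mouse quadriceps muscle were taken by symbol: every entry whose mouse symbol began with Psma, Psmb, Psmc, Psmd, Psme or Psmg followed by a number, without the inducible catalytic subunits Psmb8 and Psmb9. The rule found 42 genes among 16475 entries tested, each with 1 entry. It gave 5 genes of the core's alpha ring, 7 of the core's beta ring, 9 of the base, 8 of the lid, 3 base assembly helpers, 4 activators, 4 core assembly chaperones, and 2 genes that share the prefix but are no subunit, Psmc3ip and Psme3ip1. Psma3, Psma4, Psma5, Psmb3, Psmb5 and Psme2b were not analysed here, so both rings of the core were covered in part. The base subunit Adrm1 and the lid subunit Sem1 carry other symbols and were counted among the partners.

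The mice were male, of the strain the labels spell C56BL/6J and the series title C57BL/6J, and 1 mouse was used for each Affymetrix array. At 9 weeks of age all mice were moved to a low fat diet for a run-in of 3 weeks. One group of 10 was killed then, at 12 weeks of age (LF day 0). The others were assigned at random to stay on the low fat diet (LF day 56, 10 mice) or to eat a high fat diet (HF day 56, 10 mice) for 56 days and were killed at 20 weeks. The series asked how a diet that makes mice obese and insulin resistant acts on muscle gene expression. The diet comparison is therefore HF day 56 minus LF day 56, at equal age. Both comparisons with LF day 0 share its 10 arrays and span 8 weeks of growth. LF day 56 minus LF day 0 mixes age with time on the same low fat diet. HF day 56 minus LF day 0 mixes age with the change of diet.

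The proteasome is the protease that takes apart proteins tagged with ubiquitin. Its core particle is a barrel of stacked rings, with outer alpha rings that gate the entrance and inner beta rings that carry the cutting sites. A regulatory particle caps the barrel: its base holds ATPases that unfold the substrate and its lid holds the enzyme that removes the ubiquitin chain. In skeletal muscle this system breaks down myofibrillar proteins, and its genes are known to be induced together when muscle wastes.

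Intensities are the deposited linear GCRMA values, in arbitrary units that rank a gene across arrays but not genes against each other. Differences are on the log2 scale, with the standard error (SE) of the limma fit. Adjusted p-values come from limma with Benjamini-Hochberg adjustment over all 16475 entries. Each array showed 6334 to 6563 entries above an intensity of 20. The 9 arrays of 1 technical set (3 in each group) differed from the other 21 (7 in each group) in how strongly the 5' end of added control RNAs was seen relative to the 3' end. A marker of neutrophils, S100a8, exceeded an intensity of 100 on 7 arrays at LF day 0, 4 at LF day 56 and 6 at HF day 56.

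On 5 or more arrays, 36 of the 42 genes lay above an intensity of 20, and 35 did so on every array. By the first measure 6844 of the 16475 entries were this bright. The 6 low genes were Psma8 (an alpha subunit of the testis), Psmb11 (a beta subunit of the thymus cortex), Psmd9, Psmg3, Psmg4 and Psmc3ip. Differences of these 6 lie near background and are given only for completeness.

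Upstream sequences are shown for the alpha subunit Psma7, the base subunit Psmd4 and the lid subunit Psmd11, which were among the 6 genes with an unadjusted p under 0.05 in LF day 56 minus LF day 0, and for the catalytic subunit Psmb6, whose differences were among the smallest. Each window is the 250 bases before the RefSeq gene start of GRCm38.p6, read 5' to 3' on the gene's strand. Capitals mark CCAAT, the box bound by the factor NF-Y, and TGACNNNGC, the core of the antioxidant response element, on either strand (ATTGG is CCAAT on the other strand).
Psma7, chr2:180042465-180042714, minus strand: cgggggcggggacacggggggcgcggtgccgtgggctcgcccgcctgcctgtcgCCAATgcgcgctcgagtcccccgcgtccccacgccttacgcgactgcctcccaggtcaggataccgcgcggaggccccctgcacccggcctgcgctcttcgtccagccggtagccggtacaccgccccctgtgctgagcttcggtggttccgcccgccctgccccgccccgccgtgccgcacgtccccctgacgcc
Psmd4, chr3:95042615-95042864, minus strand: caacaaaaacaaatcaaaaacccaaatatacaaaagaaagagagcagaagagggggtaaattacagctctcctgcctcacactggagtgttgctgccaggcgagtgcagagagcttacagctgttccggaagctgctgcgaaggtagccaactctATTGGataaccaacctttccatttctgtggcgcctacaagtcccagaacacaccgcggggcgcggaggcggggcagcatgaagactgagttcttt
Psmd11, chr11:80428365-80428614, plus strand: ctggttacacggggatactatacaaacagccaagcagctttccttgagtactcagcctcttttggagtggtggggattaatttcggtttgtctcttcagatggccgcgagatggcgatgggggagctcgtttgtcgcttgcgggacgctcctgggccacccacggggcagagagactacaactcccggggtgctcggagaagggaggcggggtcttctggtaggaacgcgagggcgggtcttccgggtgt
Psmb6, chr11:70525107-70525356, plus strand: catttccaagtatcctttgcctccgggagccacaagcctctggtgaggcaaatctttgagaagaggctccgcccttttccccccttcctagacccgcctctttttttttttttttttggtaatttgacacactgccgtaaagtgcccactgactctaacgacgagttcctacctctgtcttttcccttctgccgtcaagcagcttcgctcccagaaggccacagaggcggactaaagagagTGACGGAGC

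Windows were given for 34 of the 42 genes, and Psmb1 was not among them. CCAAT lay in the windows of 13 of the 34 genes (38.2%), against 37.5% of 27025 genes and 33.8% of 32851 promoters of the same length. TGACNNNGC lay in 4 of 34 (11.8%: Psmb6, Psmc6, Psmd12 and Psmd9), against 11.5% of genes and 10.2% of promoters. No gene of the family held both motifs. All 4 alpha-ring genes with a window held CCAAT, as did 3 of 8 base genes and 1 of 6 lid genes. The counts were 1 of 4 for the beta ring, 1 of 4 for the activators and 1 of 3 for the base assembly helpers. They were 0 of 3 for the core assembly chaperones and 2 of 2 for the genes that only share the prefix. A gene counted if any of its windows matched, and Psma6, Psmc2 and Psme3ip1 each had another window without CCAAT. A match is a description of the letters and says nothing of binding.

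Under the high fat diet the proteasome genes lay close to their LF day 56 levels. None of the 42 passed the test, and at an unadjusted p under 0.05 the count was also 0. Over all entries 0.0243% passed (4 of 16475) and 5.1% had an unadjusted p under 0.05 (2.99% higher, 2.11% lower). The median difference of the 42 genes was -0.0071, with 19 higher and 23 lower, beside 0.0029 over all entries. No member's groups lay apart without overlap, which 0.0121% of entries did. The 95% interval of the difference lay within 0.32 log2 units of 0 for 39 of 42 genes (92.9%, against 81.4% of all entries) and within 1.5-fold for all 42 (97.4% of all entries). The 3 genes with wider intervals were Psmb2, Psmd10 and Psme2. These intervals bound the size of a diet difference and do not show that the levels were equal.

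Over 56 days on the low fat diet, 34 of 42 genes were higher and 8 lower than at LF day 0, with a median difference of 0.041 against 0.00089 over all entries. Of all entries 50.4% were higher. Above an intensity of 20 the genes split into 31 higher and 5 lower, beside 52.1% of entries higher. Genes correlated across arrays do not count as independent. None of the 42 passed the test, beside 0.85% of entries. At an unadjusted p under 0.05, 6 genes were higher (Psma7, Psmb1, Psmd1, Psmd4, Psmd11 and Psmd5) and 0 lower. These were 14.3% of the family, beside 10.1% of all entries, of which 4.26% were higher and 5.86% lower. Above an intensity of 20 the share was 16.7% of the 36 genes, beside 13.9% of the 6844 entries. The groups of every member overlapped, as did those of all but 0.121% of entries.

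After 56 days on the high fat diet, 31 genes were higher and 11 lower than at LF day 0, with a median of 0.035 against 0.0024. Of all entries 51.1% were higher. Above an intensity of 20 the genes split into 28 higher and 8 lower, beside 47.4% of entries higher. Again none of the 42 genes passed, beside 1.59% of entries. At an unadjusted p under 0.05, 5 were higher (Psmb1, Psmc1, Psmd1, Psmd4 and Psmd11) and 2 lower (Psmc3ip and Psmd9, both near background), 16.7% of the family, beside 11% of entries (5.31% higher, 5.71% lower). Above an intensity of 20 the share was 13.9% of the 36 genes, below the 15.9% of the 6844 entries. The groups of every member overlapped, beside 0.194% of entries whose groups did not. Here the count of genes past the test hung on the setting. It was 2 (Psmd11 and Psmb1) when only the 6844 brighter entries were fitted or when 16 was added to each intensity, and 1 (Psmd11) with an intensity trend in the prior. It was 1 without LF day 0 replicate 2 (Psmb1, adjusted p = 0.0484) and 1 without LF day 0 replicate 4 (Psmd11, adjusted p = 0.0382). Each of the other 18 arrays left out in turn gave 0.

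**Figure D1:**
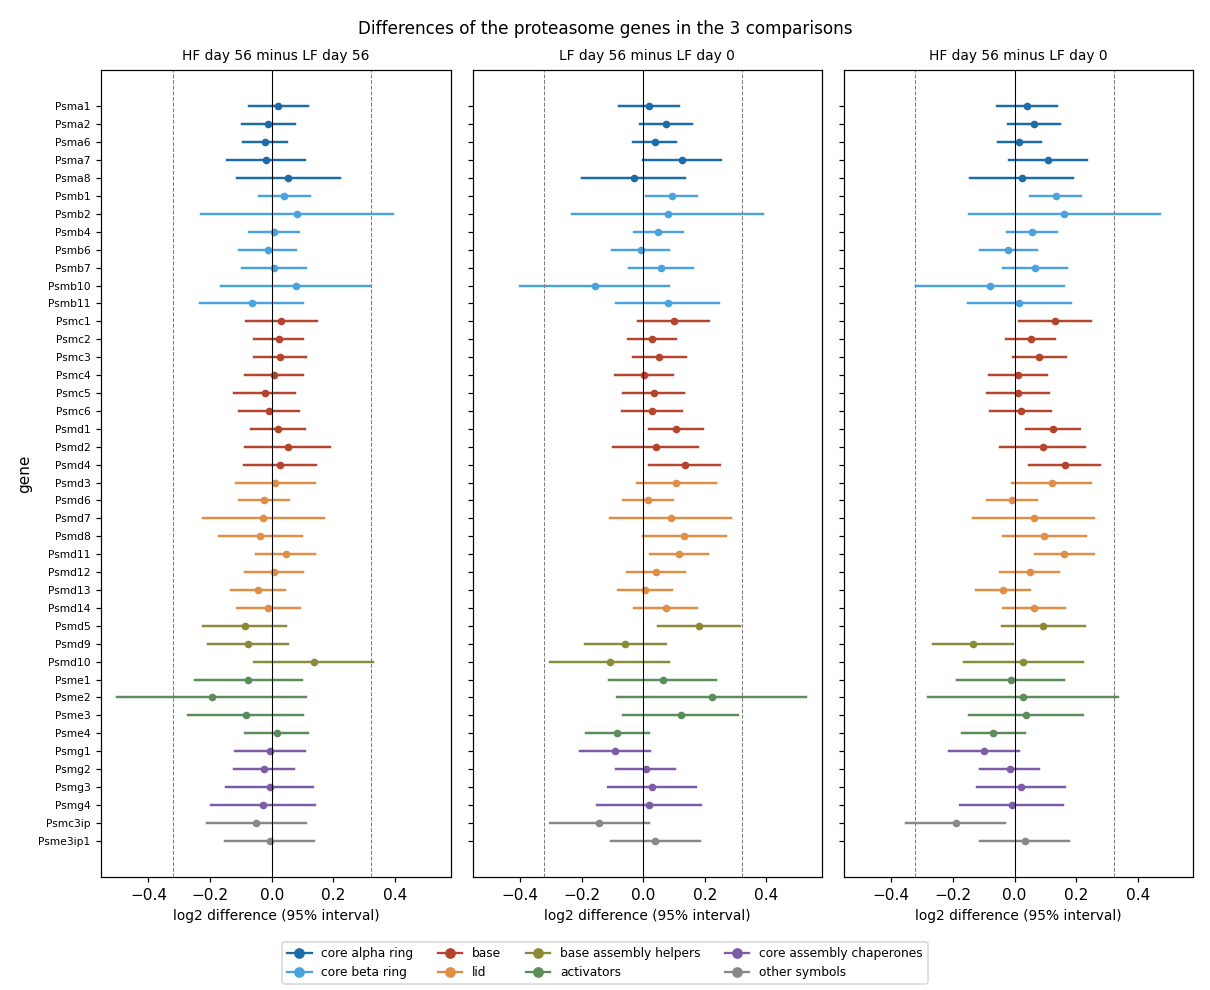
Difference of each of the 42 genes in the 3 comparisons, as a point on the log2 scale with its 95% interval, coloured by part of the proteasome; dashed lines mark 0.32 log2 units on either side of 0. In the diet comparison 39 of 42 intervals lie between the dashed lines, and in LF day 56 minus LF day 0 the points of all 9 base and 8 lid genes taken by the rule lie right of 0. The points of the 4 alpha-ring genes above an intensity of 20 do so too.

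The core's alpha ring, which gates the barrel, had no gene past the test in any comparison. In the diet comparison the median of its 5 genes was -0.011 (range -0.021 to 0.054). In LF day 56 minus LF day 0 it was 0.037, with 4 higher and 1 lower, and in HF day 56 minus LF day 0 it was 0.040, with 5 higher. The lower gene was Psma8, near background, so the 4 genes above an intensity of 20 were higher in both. Psma7 had intensities of 617.6 to 849.3 (median 718.05) at LF day 0, 711.9 to 896 (median 791.1) at LF day 56 and 666.7 to 881.9 (median 770.05) at HF day 56. The groups overlapped over most of their range, and 9 of 10 LF day 56 arrays lay above the LF day 0 mean. Psma7 was 0.13 ± 0.062 higher at LF day 56 than at LF day 0 (SE, n = 10 and 10, limma, adjusted p = 0.49) and differed by -0.017 ± 0.062 between the diets (adjusted p = 0.998). Within the technical sets the first difference was 0.16 on 21 arrays and 0.041 on 9. Psma8 stayed at 2.7 to 4.2 on all arrays, and its diet difference was 0.054 ± 0.082 (limma, adjusted p = 0.998).

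Of the beta ring, Psmb6 carries the caspase-like site and Psmb7 the trypsin-like site, while Psmb1, Psmb2 and Psmb4 hold no active site. Psmb10 replaces Psmb7 in the immunoproteasome. The 7 genes had a median of 0.0083 in the diet comparison, and of 0.057 in both LF day 56 minus LF day 0 and HF day 56 minus LF day 0, with 5 higher and 2 lower in each of the 3. Psmb1 had intensities of 1218 to 1525 (median 1358) at LF day 0, 1371 to 1534 (median 1434) at LF day 56 and 1379 to 1669.6 (median 1463) at HF day 56. The lowest arrays belonged to LF day 0, while the highest LF day 0 array reached into both other groups. Psmb1 was 0.13 ± 0.041 higher at HF day 56 than at LF day 0 (limma, adjusted p = 0.111, 10 of 10 arrays above the LF day 0 mean), 0.092 ± 0.041 higher at LF day 56 (adjusted p = 0.425, 10 of 10), and 0.041 ± 0.041 higher at HF than at LF day 56 (adjusted p = 0.998, 6 of 10). The first of these was 0.12 on the 21 arrays of 1 technical set and 0.15 on the other 9.

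The catalytic subunits Psmb6, Psmb7 and Psmb10, which were added to the named genes after their values were seen, showed no difference past the test. Psmb5, also catalytic, was not analysed. Psmb6 had medians of 2212.5 at LF day 0, 2245 at LF day 56 and 2168 at HF day 56, and its 3 differences ran from -0.021 to -0.0079. Psmb7 had medians of 3443, 3551 and 3535, in the same order, and its differences ran from 0.0083 to 0.065. Psmb10 was dim, between 54.2 and 112, and its differences of -0.16, -0.080 and 0.078 each carried an SE of 0.12. Psmb2, which holds no active site, ranged from 292 to 676.6 and had the largest spread of the ring. Its differences of 0.083, 0.079 and 0.16 therefore carried an SE of 0.15.

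**Figure D2:**
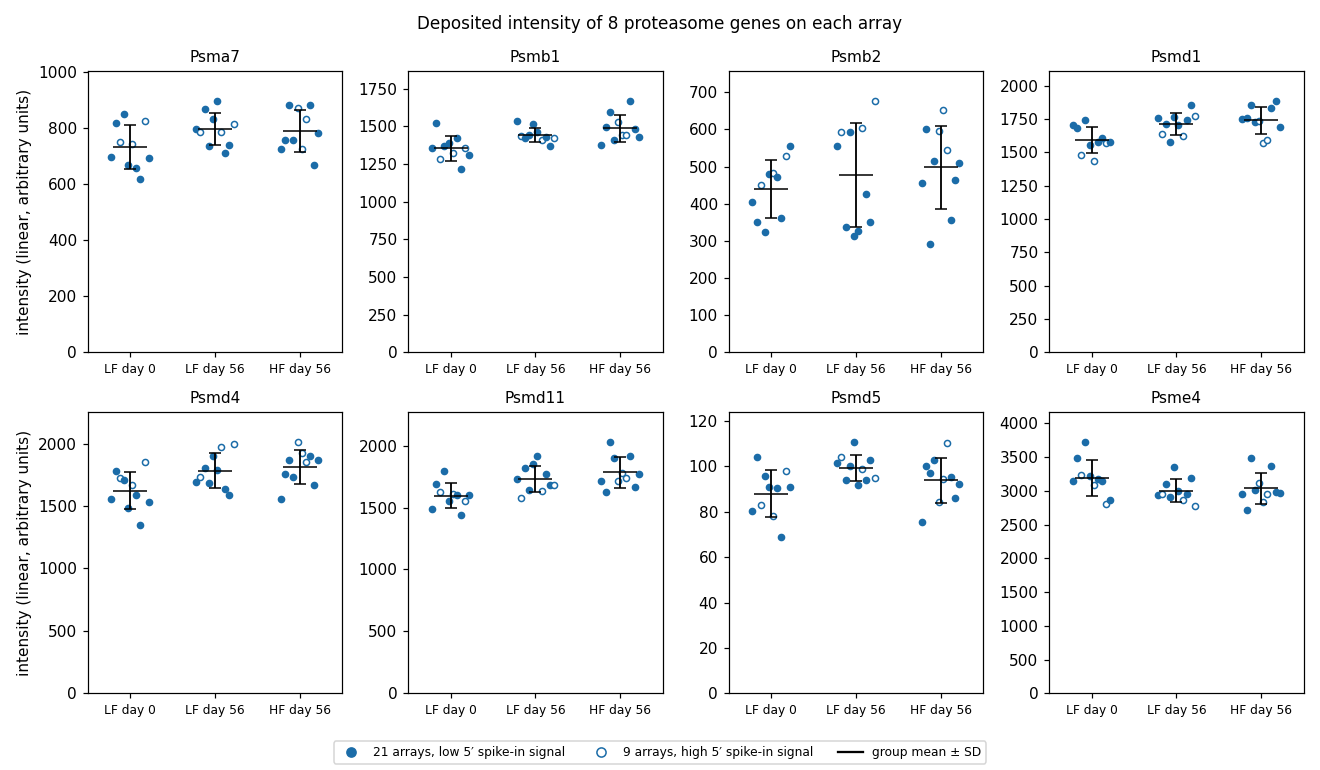
Deposited linear intensity (arbitrary units) of 8 proteasome genes on each of the 30 arrays by group; filled points are the 21 arrays and open points the 9 arrays of the technical sets, and bars are the group mean ± SD. Groups overlap for every gene, with the LF day 0 arrays reaching lowest for Psma7, Psmb1, Psmd1, Psmd4, Psmd11 and Psmd5, and the open points of Psmb2 lie between 450 and 676.6.

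The base holds the 6 ATPases Psmc1 to Psmc6, the large scaffold subunits Psmd1 and Psmd2, and Psmd4, a receptor for ubiquitin chains. All 9 genes were higher than at LF day 0 after 56 days on either diet, with medians of 0.040 on the low fat and 0.080 on the high fat diet, and none passed the test. In the diet comparison 7 were higher and 2 lower, with a median of 0.024. Psmd1 had intensities of 1434 to 1743 (median 1578) at LF day 0, 1579.8 to 1858 (median 1725) at LF day 56 and 1569 to 1885 (median 1742) at HF day 56. In both older groups 9 of 10 arrays lay above the LF day 0 mean, and all 3 groups shared the range from 1579.8 to 1743. Psmd1 was 0.13 ± 0.043 higher at HF day 56 than at LF day 0 (limma, adjusted p = 0.174) and 0.11 ± 0.043 higher at LF day 56 (adjusted p = 0.36). On the 21 and the 9 arrays of the technical sets the first difference was 0.13 and 0.13, and the second 0.082 and 0.16.

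Psmd4, named after its values were seen, showed a difference of like size in both day-0 comparisons. Its intensity was 1351 to 1849.5 (median 1629) at LF day 0, 1588 to 1999 (median 1763) at LF day 56 and 1556 to 2013 (median 1862) at HF day 56. It was 0.16 ± 0.057 higher at HF day 56 (limma, adjusted p = 0.185, 9 of 10 arrays) and 0.14 ± 0.057 higher at LF day 56 (adjusted p = 0.384, 9 of 10 arrays) than at LF day 0. Psmd2 had the smallest p of the base in the diet comparison, at 0.051 ± 0.068 (adjusted p = 0.998). The 6 ATPases differed from LF day 0 by 0.0040 to 0.099 at LF day 56 and by 0.010 to 0.13 at HF day 56. Psmc1 had the highest of these values on both diets.

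The lid, which includes the deubiquitinase Psmd14 and its partner Psmd7, was also higher at day 56 of the low fat diet for all 8 genes taken by the rule, with a median of 0.082. At HF day 56, 6 of the 8 were higher than at LF day 0 and 2 lower (Psmd6 and Psmd13), with a median of 0.062. In the diet comparison the median was -0.019, with 3 higher and 5 lower. Psmd11, a lid subunit that steadies the joint between lid and core, had the smallest p of the 42 genes in HF day 56 minus LF day 0. Its intensity was 1438 to 1792 (median 1604) at LF day 0, 1578 to 1918 (median 1707) at LF day 56 and 1623 to 2030.2 (median 1753) at HF day 56. All 10 HF day 56 arrays lay above the LF day 0 mean, yet the highest LF day 0 array exceeded the HF day 56 median.

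Psmd11 was 0.16 ± 0.047 higher at HF day 56 than at LF day 0 (limma, adjusted p = 0.0789), with a 95% interval from 0.066 to 0.26. Across the alternatives named above for this gene its adjusted p went as low as 0.0339, with 16 added to each intensity. The difference was 0.18 on the 21 arrays and 0.13 on the 9 arrays. At LF day 56 it was 0.12 ± 0.047 higher than at LF day 0 (adjusted p = 0.351, 9 of 10 arrays), with 0.15 on the 21 arrays and 0.030 on the 9. Between the diets it differed by 0.045 ± 0.047 (adjusted p = 0.998). Psmd13 had the smallest p of the lid between the diets, at -0.044 ± 0.043 (adjusted p = 0.998), and its medians were 390.3, 392.55 and 387.25 at LF day 0, LF day 56 and HF day 56. Psmd14 differed by 0.073 ± 0.050 at LF day 56 and by 0.062 ± 0.050 at HF day 56 from LF day 0, and by -0.011 ± 0.050 between the diets.

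The mean log2 intensity per array put these parts side by side, over the genes above an intensity of 20. For the 9 base genes it was 10.57 ± 0.044 at LF day 0 (SD, n = 10), 10.62 ± 0.038 at LF day 56 and 10.64 ± 0.048 at HF day 56. For the 8 lid genes it was 10.19 ± 0.075, 10.26 ± 0.054 and 10.25 ± 0.065 in the same order. The 4 alpha-ring genes gave 10.31 ± 0.056, 10.38 ± 0.045 and 10.37 ± 0.062, and the 6 beta-ring genes 9.93 ± 0.081, 9.95 ± 0.090 and 9.99 ± 0.075. In all 4 parts the arrays of the 3 groups overlapped. These means rest on the same arrays and genes as the values above and have no test of their own.

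**Figure D3:**
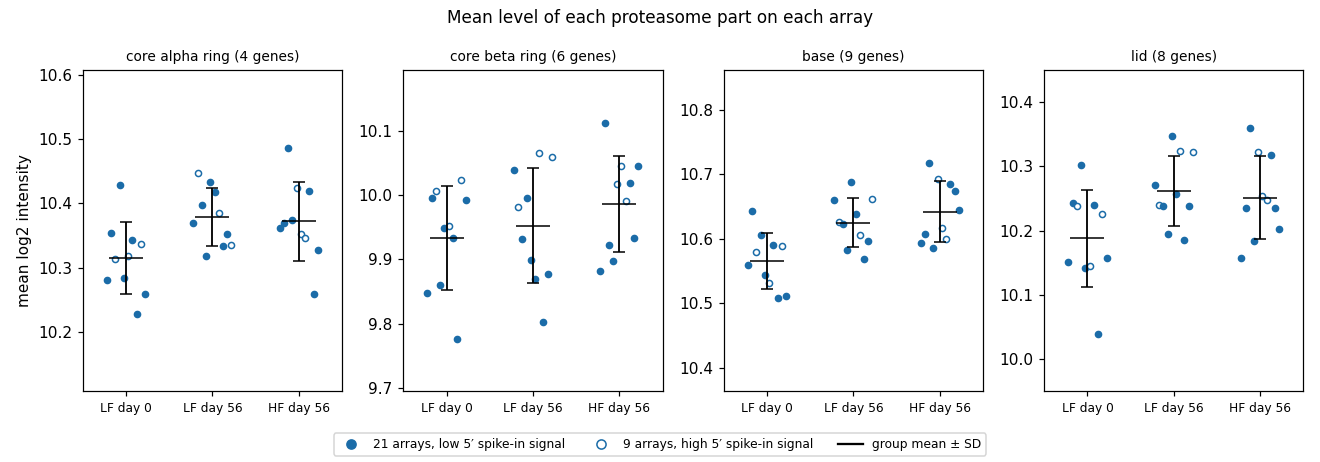
Mean log2 intensity on each array of the genes of 4 proteasome parts, by group; filled points are the 21 arrays and open points the 9 arrays of the technical sets, bars are the group mean ± SD, and each axis spans the same number of log2 units. The base mean was 10.57 at LF day 0, 10.62 at LF day 56 and 10.64 at HF day 56, with overlapping arrays.

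When the arrays with S100a8 above 100 were left out, 3 arrays remained at LF day 0, 6 at LF day 56 and 4 at HF day 56, and the day-0 differences of the base and lid became larger. The base median was then 0.11 for LF day 56 and 0.14 for HF day 56 minus LF day 0, and the lid median 0.15 and 0.16. The alpha-ring median in LF day 56 minus LF day 0 became 0.094. Psma7 was then 0.31 (limma, adjusted p = 0.237) and Psmd5 0.33 (adjusted p = 0.218) higher at LF day 56 than at LF day 0, and Psmd11 0.26 higher at HF day 56 (adjusted p = 0.538). The count past the test stayed 0 in each comparison. With the mean of the neutrophil markers of each array as a covariate, the base median was 0.030 and 0.079 and the lid median 0.077 and 0.061.

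Base assembly helpers escort parts of the base before the regulatory particle is complete. Psmd5 had intensities of 69 to 104.2 (median 90.65) at LF day 0, 91.9 to 110.8 (median 99.55) at LF day 56 and 75.6 to 110.2 (median 94.75) at HF day 56. All 10 LF day 56 arrays lay above the LF day 0 mean, and the HF day 56 arrays covered nearly the whole range of both other groups. Its difference in LF day 56 minus LF day 0, 0.18 ± 0.066 (limma, adjusted p = 0.264), had the smallest p of the 42 genes in that comparison, and was 0.17 on the 21 arrays and 0.21 on the 9. Psmd10, known as gankyrin, had the smallest p in the diet comparison. Its intensity was 79.8 to 142.1 (median 114.5) at LF day 0, 82.3 to 119.6 (median 101.6) at LF day 56 and 86.1 to 140.4 (median 110.3) at HF day 56, so that the groups overlapped nearly throughout. It was 0.14 ± 0.095 higher under the high fat diet (adjusted p = 0.998, 8 of 10 arrays above the LF day 56 mean), with 0.073 on the 21 arrays and 0.28 on the 9. Psmd9 lay between 9.3 and 13.7 on all arrays, and its difference in HF day 56 minus LF day 0 was -0.13 ± 0.064 (adjusted p = 0.434).

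Activators open the core without the regulatory particle. Psme1 and Psme2 form the ring induced by interferon gamma, Psme3 forms a nuclear ring, and Psme4 is a single large protein. Psme2 was dim and variable, with intensities of 18 to 35 (median 26.7) at LF day 0, 20.2 to 42.4 (median 32.05) at LF day 56 and 18 to 39.6 (median 26.8) at HF day 56. Its arrays were spread over the same range in all groups. Its diet difference of -0.19 ± 0.15 (limma, adjusted p = 0.998) had a 95% interval from -0.50 to 0.11. Psme4 had lower medians at day 56 on both diets: its intensity was 2812 to 3727 (median 3159.6) at LF day 0, 2769.7 to 3358 (median 2959) at LF day 56 and 2717 to 3487 (median 2976) at HF day 56. The LF day 0 group held the highest array but spanned nearly the range of the others. Its differences from LF day 0 were -0.084 ± 0.050 at LF day 56 (adjusted p = 0.605) and -0.069 ± 0.050 at HF day 56 (adjusted p = 0.694), while between the diets it differed by 0.016 ± 0.050. The class medians of the 4 activators were -0.080 between the diets, 0.093 in LF day 56 minus LF day 0 and 0.0072 in HF day 56 minus LF day 0.

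Core assembly chaperones pair up to guide the alpha ring together. Psmg1 had intensities of 111.6 to 139.9 (median 124.6) at LF day 0, 106.7 to 139.6 (median 118.9) at LF day 56 and 103.4 to 127.2 (median 123.15) at HF day 56. Only 1 of 10 LF day 56 arrays lay above the LF day 0 mean, and that array matched the top of the LF day 0 range. The HF day 56 arrays lay on both sides of that mean, several of them above it. The differences from LF day 0 were -0.092 ± 0.056 (limma, adjusted p = 0.611) and -0.099 ± 0.056 (adjusted p = 0.555). Psmg2 had medians of 425.8, 420.7 and 419.2 at LF day 0, LF day 56 and HF day 56, and differed by -0.024 ± 0.047 between the diets (adjusted p = 0.998). Medians over the 4 chaperones were between -0.016 and 0.013 in the 3 comparisons. In HF day 56 minus LF day 0 the median was -0.055 on the 21 arrays and 0.083 on the 9. Both values include Psmg3 and Psmg4, which lay near background. Over Psmg1 and Psmg2 the mean log2 intensity on the 9 arrays was lower, 7.86 at LF day 0 and 7.80 at HF day 56. On the 21 arrays it was 7.85 and 7.79.

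The 2 genes that only share the prefix were Psmc3ip, a recombination cofactor of the germ line, at 6.7 to 11 on all arrays, and Psme3ip1, a partner of Psme3. Psmc3ip had the lowest difference of the 42 genes in HF day 56 minus LF day 0, at -0.19 ± 0.078 (limma, adjusted p = 0.312), at intensities near background. Psme3ip1 differed by -0.0071 to 0.040 in the 3 comparisons.

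The spread within groups was small for most of these genes. Over the 36 genes above an intensity of 20 the median residual SD was 0.102 log2 units, against 0.190 for the 6844 entries above it. Those entries were not matched to the genes in intensity. Psma6, a constitutive alpha subunit, had the lowest residual SD, 0.0553. Psmb2 and Psme2 had the highest, 0.360 and 0.355. The parts had medians of 0.0949 for the alpha ring, 0.105 for the beta ring, 0.0972 for the base, 0.0971 for the lid and 0.201 for the activators.

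Between the technical array sets, with group in the fit, more differences passed than between any groups. Of the 42 genes 9 did (21.4%), 6 higher and 3 lower on the 9 arrays, near the background of 23.1% of all entries (10.8% higher, 12.4% lower). All 9 were among the 36 brighter genes, of which they made up 25%, against 39.8% of the 6844 entries above an intensity of 20. Psmb2 differed the most, with intensities of 450 to 676.6 (median 593.8) on the 9 arrays and 292 to 601 (median 425.1) on the 21. It was 0.43 ± 0.11 higher on the 9 (limma, adjusted p = 0.00523). Psmd7 was higher by 0.26 ± 0.072, Psme3 by 0.21 ± 0.073, Psmd8 by 0.20 ± 0.047, Psmd2 by 0.17 ± 0.052 and Psmd4 by 0.14 ± 0.044. The 3 lower genes all belonged to the base: Psmc1 (-0.15 ± 0.043), Psmc2 (-0.12 ± 0.027) and Psmd1 (-0.10 ± 0.033). The sets hold the same number of arrays of each group, and with the set as a block no member passed in any of the 3 comparisons.

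**Figure D4:**
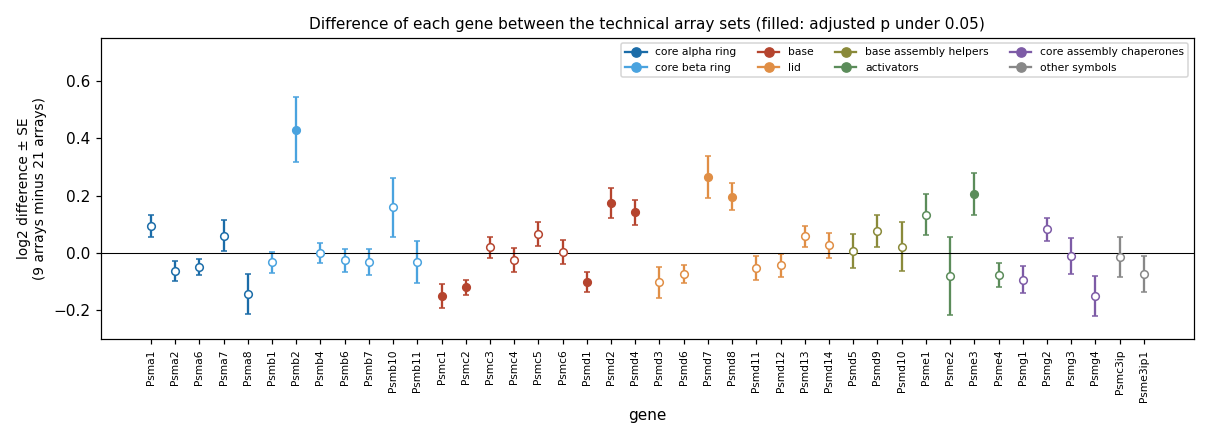
Difference of each gene between the technical array sets (9 arrays minus 21 arrays, log2 scale, ± SE), with group in the fit; filled points have an adjusted p under 0.05. Psmb2 stands highest at 0.43, and filled points of the base lie on both sides of 0.

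Pairs of proteasome genes were on average weakly correlated from array to array within a technical set, above the level of other entries on the 21 arrays. Over the 595 pairs of 35 genes, the median r of group-centred log2 values on the 21 arrays was 0.25 (Spearman 0.26). Pairs of the other 6808 entries above an intensity of 20 gave 0.0097. On the 9 arrays the median r was 0.059 (Spearman 0.067), against 0.028. The other entries were not matched to the genes in intensity. The points of each correlation share library, labelling and normalization, so these values describe the arrays. On the 21 arrays Psmb6, Psma2 and Psmb1 had the highest median r with the rest, at 0.52, 0.49 and 0.48. The closest of the 595 pairs was Psmb7 with Psmd7, at 0.93, and the most opposed was Psmd6 with Psme1, at -0.92. Psme1 and Psmb2 ran against the others, with medians of -0.32 and -0.28, followed by Psmc1 at -0.16 and Psma6 at -0.14. On the 9 arrays this order was not the same: Psmb6 and Psma2 had medians of 0.051 and 0.038, Psmc1 and Psma6 of 0.099 and 0.11, Psmb1 of 0.25, Psmb2 of -0.045 and Psme1 of -0.22. Base with lid gave a median of 0.31, beta ring with lid 0.30 and pairs of activators -0.016. On the 9 arrays base with lid gave 0.22 and beta ring with lid 0.16.

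**Figure D5:**
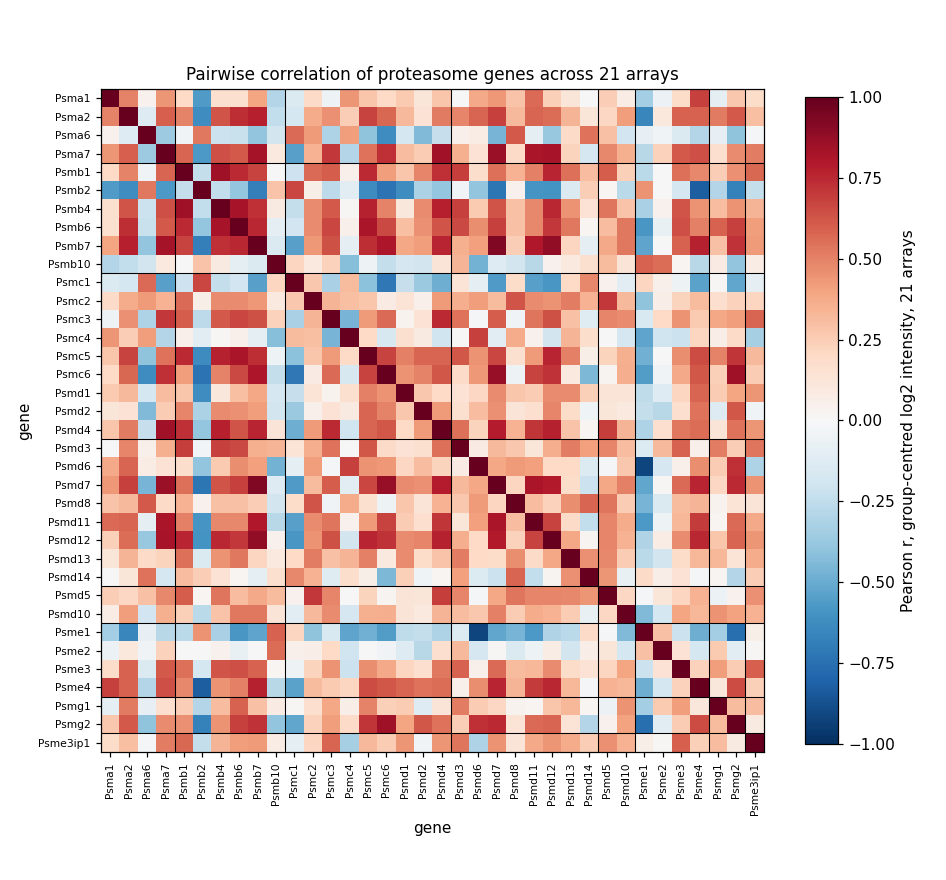
Pearson r of group-centred log2 intensity for each pair of 36 genes (35 subunits and helpers and Psme3ip1) over the 21 arrays of 1 technical set, ordered by part; red is positive and blue negative. Rows of Psmb2 and Psme1 are mostly blue, the pair Psmb7 and Psmd7 is at 0.93, and the pair Psmd6 and Psme1 is at -0.92.

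Of 35 listed symbols of ubiquitin handling and proteasome control, some of them older names of the same gene, 26 were measured. At an unadjusted p under 0.05 there were 0, 4 and 5 of them in the diet comparison, LF day 56 minus LF day 0 and HF day 56 minus LF day 0, or 0%, 15.4% and 19.2% beside 5.1%, 10.1% and 11% of all entries. Of the 6844 entries above an intensity of 20 the shares were 5.03%, 13.9% and 15.9%. No partner passed in the diet comparison or in LF day 56 minus LF day 0, and 1 passed in HF day 56 minus LF day 0, against the 1.59% of all entries given above. That gene was Nploc4, a cofactor that hands ubiquitin-tagged proteins over for unfolding. Its intensity was 245.6 to 323.4 (median 291.1) at LF day 0, 292.9 to 383.3 (median 341.05) at LF day 56 and 282.7 to 392.1 (median 352.95) at HF day 56. Every LF day 0 array lay below the medians of both other groups, whose lowest arrays still overlapped it. Nploc4 rose by 0.26 ± 0.064 (limma, adjusted p = 0.0268, 9 of 10 arrays). This call was lost with array weights (adjusted p = 0.0501), with only the groups compared in the fit (0.0586), and on either technical set alone, where the difference was 0.33 on the 9 arrays and 0.23 on the 21. It was lost too without LF day 0 replicates 1, 8 or 10 or HF day 56 replicates 2, 5, 6 or 8, each left out alone, with adjusted p between 0.052 and 0.0625, and without the arrays with S100a8 above 100 (0.56).

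Nfe2l1, a transcription factor known to drive proteasome genes when the protease is impaired, came next. It had intensities of 579.7 to 744.9 (median 667.4) at LF day 0, 632.7 to 824 (median 745.95) at LF day 56 and 672 to 939.6 (median 779.55) at HF day 56. The HF day 56 group lay highest and still overlapped LF day 0. Its difference from LF day 0 was 0.22 ± 0.060 at HF day 56 (limma, adjusted p = 0.0528, 10 of 10 arrays), and it passed with the technical set as a block (adjusted p = 0.0426) and under 6 other settings. It passed too without HF day 56 replicates 1, 4 or 7 or LF day 0 replicates 3 or 4, each left out alone, with adjusted p between 0.0297 and 0.0494. The value was 0.25 on the 21 arrays and 0.14 on the 9. At LF day 56 the difference was 0.13 ± 0.060 (adjusted p = 0.443). In the diet comparison the partners of smallest p were Psmb8, an inducible catalytic subunit at intensities of 15.2 to 25, at 0.14 ± 0.082, and Uchl5, a proteasome-bound deubiquitinase, at -0.094 ± 0.061 (adjusted p = 0.998 for both). Sem1, the lid subunit outside the symbol rule, had intensities of 2201 to 2777 (median 2492) at LF day 0, 2025 to 2584 (median 2369) at LF day 56 and 2068 to 2647.5 (median 2308) at HF day 56, and differed from LF day 0 by -0.055 ± 0.052 and -0.079 ± 0.052 (limma, adjusted p = 0.799 and 0.644), a sign opposite to that of the 8 lid genes at LF day 56. Adrm1, a ubiquitin receptor of the base, ran from 113.3 to 166.6 (median 143.95), from 131.8 to 191.9 (median 150.8) and from 130.3 to 233.8 (median 150.2), and was 0.16 ± 0.11 and 0.20 ± 0.11 higher than at LF day 0 (adjusted p = 0.66 and 0.507). Values of both were added after they were seen. Of the muscle ubiquitin ligases, Trim63 had medians of 3784, 3769 and 3863 at LF day 0, LF day 56 and HF day 56, and Fbxo32 1882, 2087 and 1983. Their differences ran from -0.065 to 0.15 without passing the test.

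Marker levels of other cells moved across the same arrays. All 10 muscle fibre markers exceeded an intensity of 20, and their mean log2 level was 14.02 ± 0.045 at LF day 0, 14.04 ± 0.040 at LF day 56 and 14.06 ± 0.046 at HF day 56 (SD, n = 10 each). Of 9 neutrophil markers 7 exceeded an intensity of 20 on 5 or more arrays. The summed intensity of all 9 ran from 46.7 to 10323 at LF day 0, from 44.1 to 2618 at LF day 56 and from 44.3 to 13452 at HF day 56. Summed levels of 8 slow fibre markers ran from 467.4 to 6004, from 454.7 to 8122 and from 372.8 to 5889 in the same order. For 8 fibroblast and matrix markers the sums ran from 10176 to 17151, from 9299.5 to 11848 and from 8537 to 12248, and 4 of the 8 passed the test in each comparison with LF day 0. The mean log2 level of 8 endothelial markers was 6.56 ± 0.20, 6.27 ± 0.16 and 6.38 ± 0.13, their sums ran from 798.6 to 1351, from 689 to 1056 and from 797.6 to 1101, and 1 of the 8 passed in each comparison with LF day 0. Of 8 macrophage markers only 5 exceeded an intensity of 20 on 5 or more arrays. The mean log2 level of all 8, which includes the dim ones, was 4.76 ± 0.26, 4.72 ± 0.19 and 4.85 ± 0.32. Of 6 adipocyte markers 4 passed in HF day 56 minus LF day 0, and 0 in each of the other comparisons. The mean log2 level of the 6 was 7.27 ± 0.28 at LF day 0, 7.75 ± 0.35 at LF day 56 and 8.23 ± 0.67 at HF day 56. Among them Cfd alone had falling medians, of 788.75, 724.05 and 620.05 in the same order. The part of the fibroblast, endothelial and adipocyte markers in the values of the proteasome genes was not tested. With the slow fibre level as a covariate, the base medians were 0.052 and 0.079 and the lid medians 0.092 and 0.070 for LF day 56 and HF day 56 minus LF day 0. In whole muscle, fewer cells of a type and less RNA per cell cannot be told apart.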

How the data were processed

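RNA of whole quadriceps was measured on 30 arrays, 10 in each of 3 groups set by the labels, with 1 mouse per array. The authors deposited 1 linear intensity per gene and array, made with GCRMA per the submitters' processing notes (version not stated); as a method GCRMA subtracts modelled background, so that dim genes gather near a floor. The table held 16539 entries, of which 64 control probe sets were left out and 16475 tested. Values were turned to log2 with a pseudocount of 0. One limma model (lmFit and eBayes; version 3.58.1, R 4.3.3) held all 30 arrays with group as factor, and tests were two-sided, with Benjamini-Hochberg adjustment over all entries, a threshold of 0.05 and intervals of 95%. The number of arrays limits the precision. Arrays were split into technical sets where the 5' minus 3' log2 signal of the added control RNAs dap and thr left its largest gap.

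The genes given values were, in each comparison, the member of smallest p of each part (14 in all), any member past the test, and 2 partners of smallest p per comparison; others named were chosen after their values were seen. Members and lists were chosen with earlier results of these data known. Upstream windows came from RefSeq (GRCm38.p6) and were searched with Python 3.11.15. Protein sequences were not used here. Alternatives were other priors, weights, normalizations, filters, covariates, blocks, subsets of arrays and each array left out in turn. The contrast between the technical sets, the limits set to the intervals and the fit without arrays high in S100a8 were added after seeing the data. The limma script was tested on simulated data.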

Additional observations from a re-analysis of the deposited data

Results flagged for a closer look

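Psmd9 at HF day 56 had 1 array, replicate 5, at an intensity of 13, with the next array at 11; on the log2 scale the gap was 0.591 of the group's range, above Dixon's limit of 0.466 for 10 arrays. All of its arrays lay near background. It was the only group past this limit among 75 gene and group combinations looked at, and chance alone puts about 1 in 20 groups past it.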

How the results depend on the processing

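The count of proteasome genes past the test stayed 0 in HF day 56 minus LF day 56 and in LF day 56 minus LF day 0 under all 15 alternatives and all 20 fits with 1 array left out. In HF day 56 minus LF day 0 it was 2 with entries above 20 only and with a pseudocount of 16. It was 1 with a trend in the prior, and 0 to 1 with 1 array left out. The cause was not tested. The filter adjusts over fewer entries and also changed the unadjusted p, for Psmb1 to 0.00185 from 0.00269 in the main fit (limma). With the replicate number as a block (replicate block) the count was 0 in each comparison. The labels give 1 mouse per array and do not pair the mice by replicate number. Of 30 same-numbered pairs, r of their deviations from the group means ran from -0.53 to 0.57 and 9 exceeded 0.1. Pairs of unlike number were not compared, so these values cannot decide whether the numbers pair. Without the arrays with S100a8 above 100, an alternative added after seeing the data, medians were 0.14 (base), 0.16 (lid) and 0.18 (base assembly helpers) in HF day 56 minus LF day 0, and 0.11, 0.15, 0.10 and, for the alpha ring, 0.094 in LF day 56 minus LF day 0. The main fit gave the base assembly helpers 0.028 and -0.058 in the same order. Their median thus changed sign in LF day 56 minus LF day 0. The main-fit median there was the value of Psmd9, near background, between Psmd10 at -0.11 and Psmd5 at 0.18. On the 9 arrays alone the chaperone median in HF day 56 minus LF day 0 was 0.083, against -0.013 in the main fit. That median includes Psmg3 and Psmg4, near background. On the same 9 arrays Psmb8 reversed to -0.050 in the diet comparison. Causes were not tested. The other medians moved by less than the spread between arrays. Signal over background limits Psma8, Psmb11, Psmd9, Psmg3, Psmg4 and Psmc3ip, and 10 mice per group limit what can be seen of differences this small.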
